A study of Mus musculus with 13 samples.

Results

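The genes described here are 10 mouse genes of glutathione conjugation and glutathione synthesis, out of 45250 genes in the deposited RNAseq tables. Of these, Gsta4, Gstm1, Gstm5, Gsto1 and Gstp1 are soluble transferases, Mgst1 and Mgst3 are membrane-bound ones, Gclc and Gclm are the catalytic and modifier subunits of glutamate-cysteine ligase, and Gss is glutathione synthetase. They were found by gene symbol in the deposited tables, and all 10 have a row. The group was selected on the FPKM of Gsta4, which was much lower in Lmo2-/- than in WT HE1, so its values in that contrast are given below as a description with no test.

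Mouse ES cells were differentiated in culture. Flk-1+ cells, taken from embryoid bodies at day 3.75 with magnetic beads, are the haemangioblast stage, and haemogenic endothelium 1 (HE1) was sorted as Tie2+ Kit+ CD41- cells after these were cultured further in blast medium. There are 13 RNAseq libraries: Flk-1+ cells have 3 for each genotype (WT, Lmo2-/-, Tal1-/-), and HE1 has 2 for WT and 2 for Lmo2-/-. LMO2 bridges proteins in a DNA-bound complex that holds the bHLH factor TAL1, and both are needed for blood formation.
Each genotype came from an ES cell line of its own (CCB for WT), so the libraries repeat the differentiation and not the line, and a difference between genotypes cannot be told apart from one between lines. All the groups were grown with monothioglycerol, a thiol, and ascorbic acid, which are both reducing agents. The blast medium held more of the former and less of the latter than the embryoid body medium, so stage and medium cannot be told apart either.

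Glutathione is the main small thiol of the cell. Glutamate-cysteine ligase makes its first peptide bond in the rate-limiting step, with Gclc as the catalytic subunit and Gclm as the partner that raises its activity, and Gss then adds glycine. Transferases couple glutathione to reactive molecules, and GSTA4 is known for its activity towards 4-hydroxynonenal, an aldehyde made when membrane lipids are oxidised. Several of these genes are textbook targets of the factor NRF2 (Nfe2l2), which binds antioxidant response elements and is held back by KEAP1.

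The members lie on 6 chromosomes of GRCm38 by GENCODE M21, and all are protein-coding. Gsta4 (chr9:78182774-78209349) and Gclc (chr9:77754535-77794485) are both on the plus strand of chromosome 9. Chromosome 3 holds Gclm (chr3:122245557-122270732) and the neighbours Gstm5 (chr3:107895821-107898686) and Gstm1 (chr3:108012255-108017973), the last on the minus strand. Gsto1 (chr19:47854970-47864790) and Gstp1 (chr19:4035407-4037985) are on chromosome 19, the latter on the minus strand, as are Gss (chr2:155563181-155592810) and Mgst3 (chr1:167371966-167393841). Mgst1 (chr6:138140316-138156755) is on the plus strand. The transferases are all short genes by transcript, with a longest GENCODE transcript of 821 to 1289 nt. The synthesis genes are longer, with 3258 nt for Gss, 3423 nt for Gclc and 5589 nt for Gclm.
The Gsta4 row is narrower than the gene, with 17383 bp from position 78191966 against 26576 bp from 78182774. Some rows of the tables are wider than the gene. The Gclm row also carries Gm6061 and spans 284635 bp, and 7 other rows overlap this gene. The Gsto1 row spans 181739 bp and the Gstm5 row 21458 bp, with 3 other rows overlapping each gene. The Gss row spans 104577 bp, where 7 other rows overlap it, antisense transcripts of Gss among them. Reads from these neighbours may be counted in the row, and Gstm and Gstp genes have close copies between which reads can be split, so their values are uncertain to that extent.

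RefSeq promoters (GRCm38.p6) were at hand for 8 of the members, not Gsta4 and Gclc. In the 250 bases before each start both strands were searched for the antioxidant response element core TGACNNNGC, the GATA site AGATAA, the E-box CAGCTG and the ETS site CCGGAA, the last 3 because LMO2 complexes sit at such sites. The E-box reads the same on both strands, and none of the matches found overlaps another. The promoters of Gclm and Gsto1 are printed because these members passed 10 FPKM in HE1. Capitals mark the only match in them, the response element core of Gclm, which lies on the opposite strand at -134 to -126 from the start.
Gclm promoter, chr3:122245307-122245556, plus strand: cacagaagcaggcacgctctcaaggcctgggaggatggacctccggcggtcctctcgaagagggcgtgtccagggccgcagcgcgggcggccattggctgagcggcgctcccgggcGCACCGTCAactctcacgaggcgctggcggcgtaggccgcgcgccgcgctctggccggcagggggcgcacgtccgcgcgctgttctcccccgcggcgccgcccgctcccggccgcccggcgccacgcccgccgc
Gsto1 promoter, chr19:47854723-47854972, plus strand: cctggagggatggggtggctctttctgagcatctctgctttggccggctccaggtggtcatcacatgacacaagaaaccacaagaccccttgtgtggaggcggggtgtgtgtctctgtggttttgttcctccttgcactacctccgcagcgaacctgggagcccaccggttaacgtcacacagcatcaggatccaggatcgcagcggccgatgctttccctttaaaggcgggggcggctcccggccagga
The core was also found before Gstm5, as TGACCACGC at -42 to -34 from the start, and before a start of Mgst1, as GCACGGTCA at -56 to -48. This core is held by 10.2 percent of all 32851 RefSeq promoters. No promoter of a member held the GATA letters, which 9.99 percent of all promoters hold. The E-box (13 percent of all promoters) was found before Gstm5 and the ETS site (12 percent) before Mgst1 and Mgst3. These are matches of letters in a short window, and no binding was measured at them here.

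Values are FPKM as the authors computed them for each library, that is fragments divided by transcript length and by library size. Fold changes and the share of genes at 0 still moved with transcript length, as given below. Comparisons and sums over genes of different length are therefore approximate. The paper states a minimum number of reads for every library. The number of fragments behind each value is not in the tables, so the depth of each library is not known beyond that minimum. Lmo2-/- HE1 replicate 1 stood apart. It had 9694 genes above 0, against 11861 to 15641 in the other libraries, and of 4079 genes with a median above 10 FPKM it listed 191 at 0, against 1 to 59. A value of 0 can also be a failed estimate: Gpx4, which cells need to survive lipid oxidation, is listed at 0 in 4 of the 13 libraries (named after its values were seen).
The labels were checked on their markers. Kdr, which encodes Flk-1, was at 68.7 to 252 FPKM in the Flk-1+ libraries and stayed high in HE1, at 236 and 275 in WT and 175 and 143 in Lmo2-/-, so it does not separate the stages. The HE1 genes Tek, Kit, Cdh5 and Pecam1 summed to 674 to 742 FPKM in HE1 against 5.0 to 13.3 in Flk-1+ cells. The sum hides differences between the HE1 genotypes. Cdh5 was at 452 and 423 FPKM in WT HE1 and at 281 and 365 in Lmo2-/- HE1. Tek went the other way, at 121 and 124 against 176 and 154, as did Pecam1, at 109 and 124 against 167 and 144, while Kit overlapped. Itga2b, which encodes CD41, was at 15.4 and 10.4 FPKM in WT HE1 and at 19.8 and 0 in Lmo2-/- HE1. Lmo2 itself was at 21.6 to 30.8 FPKM in WT and 2.17 to 6.48 in Lmo2-/- Flk-1+ cells, but in HE1 it was at 4.30 and 20.6 in the libraries labelled WT and at 6.42 and 0 in those labelled Lmo2-/-. It thus did not separate the HE1 libraries, and the directions given for HE1 rest on the labels. Tal1 was at 22 to 37.4 FPKM in WT and 2.74 to 3.41 in Tal1-/- Flk-1+ cells.
Most of the fibroblast and smooth muscle genes were higher in Lmo2-/- HE1. Their 8 genes summed to 497 and 1595 FPKM there, against 197 and 251 in WT HE1, and 5 of the 8 were above every WT library. The genes Thy1 and Dcn of that list were at or under 0.99 FPKM in all 4 HE1 libraries. Tagln overlapped between the genotypes, at 59.0 and 24.1 FPKM in Lmo2-/- HE1 and 50.5 and 53.7 in WT HE1. The 5 mesoderm genes T, Eomes, Mesp1, Pdgfra and Mixl1, at 125 to 412 FPKM in sum in Flk-1+ cells, summed to 1.82 to 4.62 FPKM in WT HE1 and 38 to 96.5 in Lmo2-/- HE1. Nearly all of the latter was Pdgfra, at 37.3 and 94.5 FPKM, while T and Mesp1 were at 0 in all 4 HE1 libraries. Of the 5 genes 2 were above every WT HE1 library. Eomes was below them, at 0.599 and 0 FPKM in Lmo2-/- against 1.64 and 0.811 in WT. Of all tested genes 39.7 percent did not overlap between the HE1 genotypes, both directions counted. The counts of both lists are to be read against that share. Fewer cells of a type and less RNA per cell cannot be told apart in such bulk samples, and the part of these genes in the differences below was not tested.

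Gsta4 was the transferase with the widest range. In WT Flk-1+ cells it was at 2.77, 6.38 and 4.07 FPKM, and in WT HE1 at 40.8 and 37.4. Every WT HE1 library thus lay above every Flk-1+ library of any genotype. In both Lmo2-/- HE1 libraries Gsta4 is listed at 0, and the authors' value for the pooled condition is 0 as well, against 32.8 for WT HE1.
In Lmo2-/- Flk-1+ cells its values were 2.64, 2.59 and 1.67 FPKM, and in Tal1-/- Flk-1+ cells 5.96, 4.01 and 6.55. In the order of group means WT HE1 comes first with 39.1 ± 2.4 (SD, n = 2), then Tal1-/- Flk-1+ with 5.50 ± 1.33 (SD, n = 3), WT Flk-1+ with 4.41 ± 1.83 (SD, n = 3) and Lmo2-/- Flk-1+ with 2.30 ± 0.549 (SD, n = 3). Tal1-/- and WT overlapped, whereas the highest Lmo2-/- library lay just below the lowest WT one.

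A value of 0 in both Lmo2-/- HE1 libraries was rare for a gene at this level. This is a description only, since the same contrast chose Gsta4. The genes that had it were short where their length was known. Of 4250 tested genes above 10 FPKM in both WT HE1 libraries, 16 were listed at 0 in both Lmo2-/- HE1 libraries, which is 0.376 percent. Of these, 3 had a mean in WT HE1 at least as high as that of Gsta4. By transcript length, 11 of 259 genes of at most 1000 nt, the class of Gsta4, were at 0 in both (4.25 percent). Of those with 1001 to 1500 nt 2 of 145 were, and above 1500 nt 0 of 3738. Gsta4 itself is counted in the 16, the 3 and the 11. The same short class had 24 of its 259 genes at 0 in Lmo2-/- HE1 replicate 0 and 59 in replicate 1.
Of all tested genes with a transcript of at most 1000 nt, 49.1 and 39.8 percent were at 0 in the WT HE1 libraries and 50.4 and 66.9 percent in the Lmo2-/- HE1 libraries, against 18.1 to 37.6 percent in Flk-1+ cells. The part of transcript length in the values of Gsta4 and the other transferases was not tested.

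**Figure D1:**
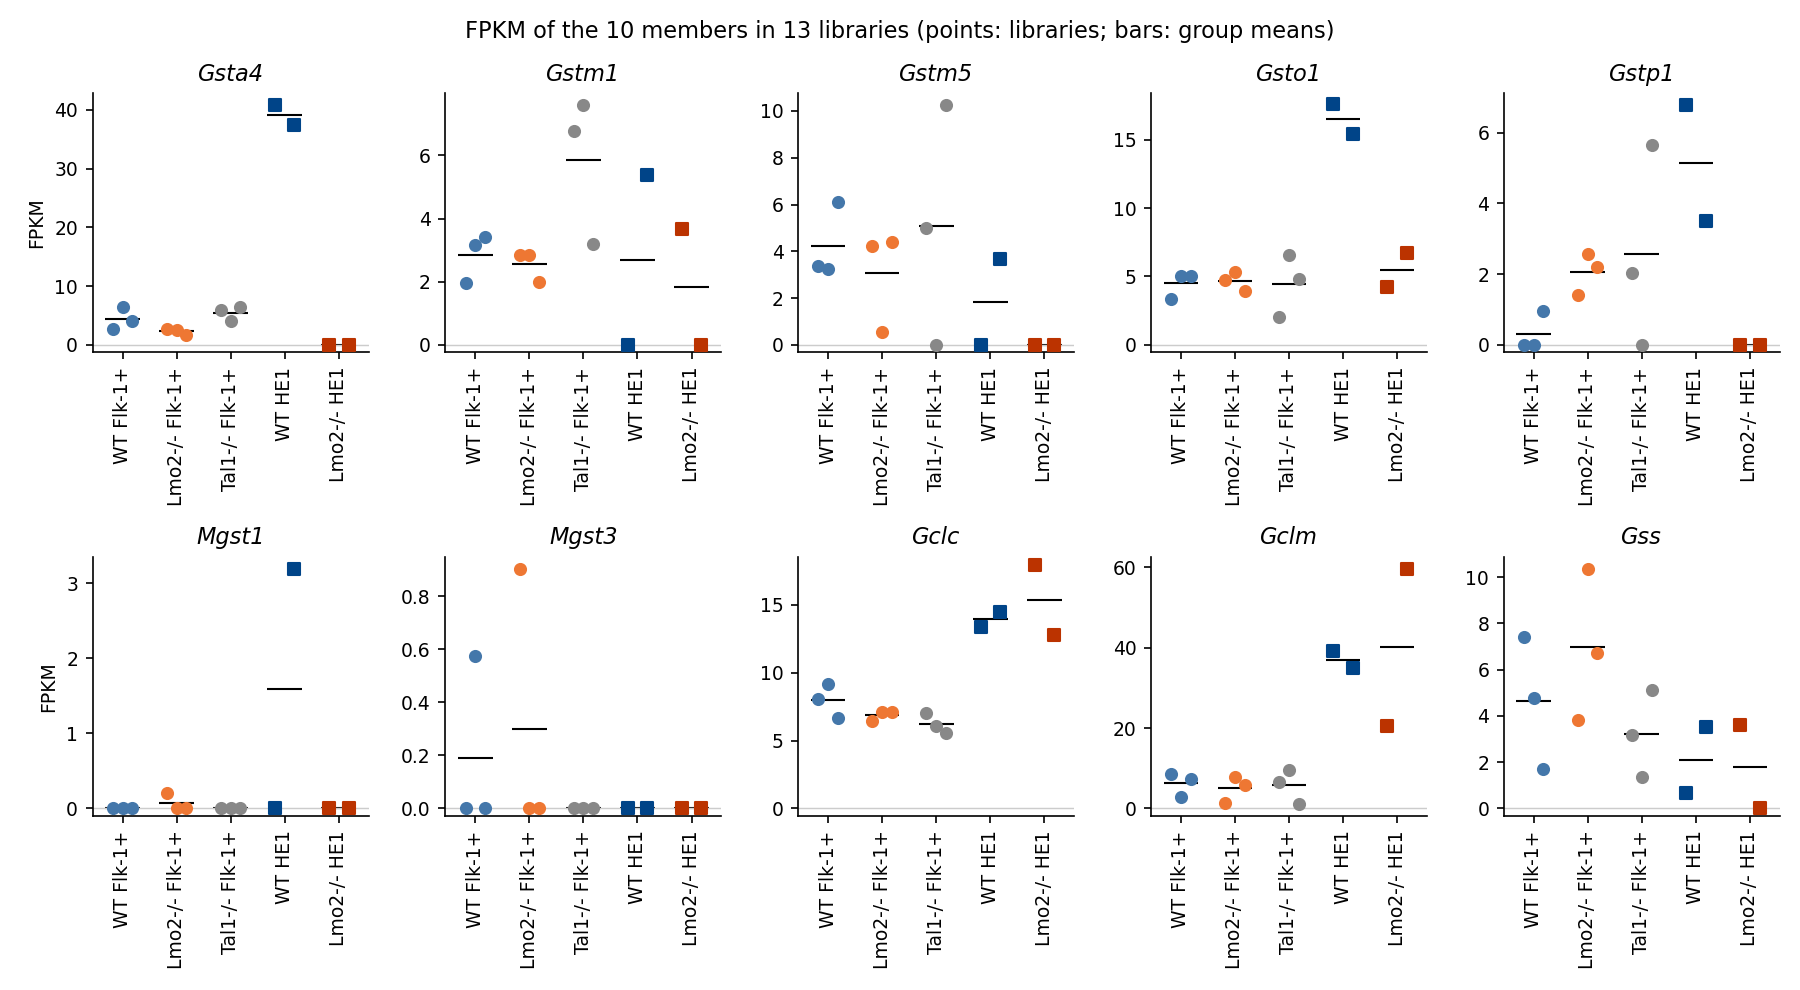
FPKM (vertical axis, linear, scaled to each gene) of the 10 members in the 13 libraries, by group. Points are libraries and bars are group means of 3 Flk-1+ or 2 HE1 libraries; Gsta4 is at 40.8 and 37.4 FPKM in WT HE1 and at 0 in both Lmo2-/- HE1 libraries, while Gclc and Gclm are higher in HE1 of both genotypes.

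The other transferases were lower and differed from each other. Gsto1, an omega-class enzyme that also acts as a thiol reductase, was at 3.37, 5.03 and 5.07 FPKM in WT Flk-1+ cells, 4.76, 5.35 and 3.94 in Lmo2-/- and 2.04, 6.54 and 4.8 in Tal1-/-. It reached 17.6 and 15.4 FPKM in WT HE1 and was at 4.20 and 6.74 in Lmo2-/- HE1. The HE1 groups did not overlap, and the Lmo2-/- HE1 values lay within or close to the range of Flk-1+ cells.
Gstp1, the pi-class enzyme, was listed at 0, 0 and 0.949 FPKM in WT Flk-1+ cells and was at 1.40, 2.56 and 2.21 in Lmo2-/- and 2.05, 0 and 5.65 in Tal1-/- Flk-1+ cells. In HE1 it was at 6.77 and 3.50 in WT and is listed at 0 in both Lmo2-/- libraries. Lmo2-/- thus lay above WT in Flk-1+ cells and below it in HE1, without overlap at either stage, all at levels under 10 FPKM.
Gstm1 was at 1.97 to 3.42 FPKM in WT, 2.0 to 2.85 in Lmo2-/- and 3.19 to 7.58 in Tal1-/- Flk-1+ cells. In HE1 its libraries ran from 0 to 5.40 in WT and from 0 to 3.67 in Lmo2-/-, so the groups overlapped. Gstm5, its neighbour of the mu class, was above 0 in 8 of the 9 Flk-1+ libraries and at up to 10.2 FPKM, in 1 of the WT HE1 libraries at 3.68, and is listed at 0 in both Lmo2-/- HE1 libraries.
The microsomal transferases were listed at 0 in most libraries. Mgst1 was above 0 only in Lmo2-/- Flk-1+ replicate 0 (0.210 FPKM) and WT HE1 replicate 1 (3.19 FPKM), and Mgst3 only in WT Flk-1+ replicate 1 (0.575) and Lmo2-/- Flk-1+ replicate 0 (0.902). These 2 genes did not reach 1 FPKM in at least 2 libraries and were not tested, which left 8 of the 10 members among 13802 tested genes.

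Of the genes of synthesis, Gclc and Gclm were high in HE1 of both genotypes. Gclc was at 8.08, 9.16 and 6.62 FPKM in WT, 6.44, 7.11 and 7.12 in Lmo2-/- and 7.0, 6.09 and 5.57 in Tal1-/- Flk-1+ cells. In HE1 it was at 13.4 and 14.5 in WT and 17.9 and 12.8 in Lmo2-/-, above every Flk-1+ library, with overlap between the genotypes.
Gclm was less even between libraries, at 8.67, 2.84 and 7.37 FPKM in WT, 1.32, 7.72 and 5.88 in Lmo2-/- and 6.50, 9.62 and 1.03 in Tal1-/- Flk-1+ cells. It was at 39.1 and 35.0 in WT HE1 and at 20.5 and 59.6 in Lmo2-/- HE1, where the pair of libraries enclosed both WT values. This is the member whose promoter is printed above with the response element core.
Gss ran from 1.72 to 7.40 FPKM in WT, 3.83 to 10.4 in Lmo2-/- and 1.34 to 5.12 in Tal1-/- Flk-1+ cells. It was at 0.672 and 3.51 in WT HE1 and at 3.61 and 0 in Lmo2-/- HE1.

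Summed over the 7 transferases, the libraries held 11.5 to 30.4 FPKM in Flk-1+ cells, 65.1 and 68.5 in WT HE1 and 7.87 and 6.74 in Lmo2-/- HE1. Gsta4 made up 11.7 to 34.7 percent of this sum in Flk-1+ cells and 62.6 and 54.5 percent in WT HE1. Without Gsta4 the sums were 24.4 and 31.2 FPKM in WT HE1 and, since it is at 0 there, the same 7.87 and 6.74 in Lmo2-/- HE1. The synthesis genes summed to 11.6 to 25.2 FPKM in Flk-1+ cells, 53.1 and 52.9 in WT HE1 and 42.1 and 72.4 in Lmo2-/- HE1, so that the sum overlapped between the genotypes. At 0 in Lmo2-/- HE1 were 5 and 6 of the 7 transferases, against 4 and 1 in WT HE1.

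**Figure D2:**
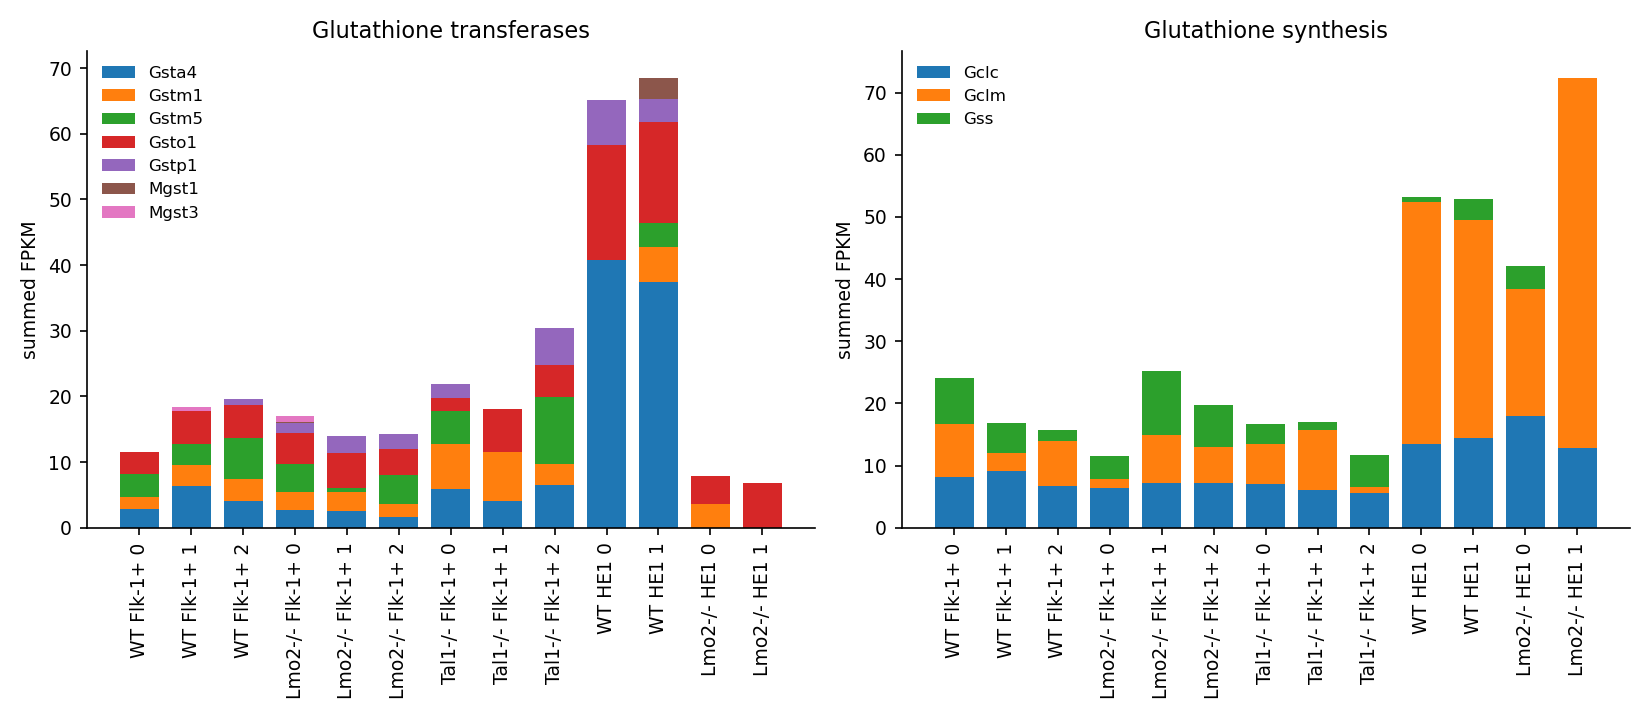
Summed FPKM (vertical axes, linear from 0) of the 7 transferases (left) and the 3 synthesis genes (right) in each of the 13 libraries, with a colour for each gene. The transferase bars of WT HE1 reach 65.1 and 68.5 FPKM, mostly from Gsta4, and those of Lmo2-/- HE1 7.87 and 6.74; the synthesis bars are high in all 4 HE1 libraries, from 42.1 to 72.4 FPKM, with Gclm as the largest part of each.

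From WT to Lmo2-/- HE1, the contrast that chose the members, 6 of the 8 tested members had a lower mean FPKM and 2, Gclc and Gclm, a higher one. On the log2(FPKM + 1) scale, the differences of the means were -1.46 for Gsto1, -0.35 for Gss, -0.23 for Gstm1, -0.07 for Gclm and 0.12 for Gclc, with Gclm negative here because 1 of its libraries was low. Gsta4, Gstp1 and Gstm5 have no fold change, since they are listed at 0 in the Lmo2-/- libraries. Gsta4, Gsto1 and Gstp1 did not overlap between the groups. For comparison, 39.7 percent of all tested genes did not overlap between these pairs of libraries, 2.15 percent were called higher and 0.855 percent lower in Lmo2-/-.
Single libraries decided the sign of the smaller differences. Without Lmo2-/- HE1 replicate 1 they were 0.34 for Gclc, -0.82 for Gclm, 0.75 for Gss and 0.88 for Gstm1, and without Lmo2-/- HE1 replicate 0 they were -0.11, 0.67, -1.46 and -1.34. Without WT HE1 replicate 1 Gss was at 0.36 and Gstm1 at 1.11, and without WT HE1 replicate 0 these were at -1.07 and -1.57. With the trend on transcript length taken out of each library Gclc was at -0.16 and Gstm1 at 0.07, and Gclc was at -0.21 with quantile normalization and at -0.34 with a common median. Gsto1 stayed between -1.84 and -1.13 in all the fits run.

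The Flk-1+ libraries had no part in choosing the members, and the genotypes were compared there by limma on log2(FPKM + 1). A gene was called at a Benjamini-Hochberg adjusted p below 0.05 over all tested genes, with a mean above 10 FPKM in at least 1 of the groups compared. No member reached a mean of 10 FPKM in Flk-1+ cells, so none could be called, and none had an adjusted p below 0.05. The smallest limma adjusted p of a member was 1.0 from WT to Lmo2-/-, 0.886 from WT to Tal1-/- and 0.78 from Lmo2-/- to Tal1-/-. Of all tested genes 0, 0 and 2 were called in these comparisons (0.0, 0.0 and 0.0145 percent). An unadjusted limma p below 0.05 was found for 307, 843 and 822 of all tested genes and for 0, 0 and 1 of the 8 members.
That member was Gsta4. Its limma log2 fold change was 0.97 (SE 0.40, adjusted p = 0.78) from Lmo2-/- to Tal1-/-, -0.67 (SE 0.40, adjusted p = 1) from WT to Lmo2-/- and 0.30 (SE 0.40, adjusted p = 0.994) from WT to Tal1-/-. Gstp1 was at 1.27 (SE 0.59, adjusted p = 1) from WT to Lmo2-/-, with a pair of WT libraries at 0.
By the exact permutation test over libraries (two-sided), 4 of the 24 comparisons of a member reached p = 0.10, the smallest that 3 against 3 libraries allow. These were Gsta4 between Lmo2-/- and each of the other genotypes, Gstp1 between WT and Lmo2-/-, and Gstm1 between Lmo2-/- and Tal1-/-. The libraries thus did not overlap for 2 of 8 members from WT to Lmo2-/-, none from WT to Tal1-/- and 2 from Lmo2-/- to Tal1-/-, where 8.21, 12.6 and 13.3 percent of all tested genes did not overlap. All of these differences are between values under 10 FPKM.

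From Flk-1+ cells to HE1, members were called higher in both genotypes. No member reached a mean of 10 FPKM in Flk-1+ cells, so the criterion allowed no call lower in HE1. In WT, Gsto1 was called higher in HE1, with a limma log2 fold change of 1.69 (SE 0.46, adjusted p = 0.0355), and it was the only call among the 7 members counted, with Gsta4 left out because HE1 libraries chose it. Of all tested genes 6.04 percent were called higher and 0.942 percent lower in WT HE1. Gclm had a larger difference with a wider error and missed the threshold, at 2.49 (SE 0.76, adjusted p = 0.0556). Gstp1 was at 2.24 (SE 0.66, adjusted p = 0.0495), under the 10 FPKM that a call asks for, and Gclc at 0.75 (SE 0.35, adjusted p = 0.219). Gsta4 was 2.94 higher on this log2 scale, given with no test.
The Gsto1 call was lost without any 1 of the WT Flk-1+ libraries, either WT HE1 library, or Lmo2-/- Flk-1+ replicate 0 or 2, with limma adjusted p between 0.0535 and 0.222. It was also lost with quantile normalization (0.116) and with a common median (0.121), and the rise stayed between 1.23 and 1.89 in all the fits run.

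Between the Lmo2-/- stages, Gclm was called higher in HE1 by 2.80 (SE 0.76, limma adjusted p = 0.0167) and Gclc by 1.03 (SE 0.35, adjusted p = 0.0466). Of all tested genes 17.2 percent were called higher and 2.38 percent lower in Lmo2-/- HE1, so 2 of 7 members compares with a high background. Gsto1 was at 0.17 (SE 0.46, adjusted p = 0.815) and turned negative with quantile normalization (-0.24) and a common median (-0.66). Gss was at -1.81 (SE 0.75, adjusted p = 0.0943), and Gstp1 (adjusted p = 0.0947) and Gstm5 (adjusted p = 0.168) went from low values to 0. Gsta4 went from 1.67 to 2.64 FPKM to 0.
The Gclm call was lost without Lmo2-/- Flk-1+ replicate 0 (adjusted p = 0.0587) and without Lmo2-/- HE1 replicate 1 (0.153). The Gclc call was kept only without WT Flk-1+ replicate 0 (0.0497), and leaving out any 1 of the other 12 libraries gave an adjusted p between 0.0522 and 0.127. With the trend on transcript length removed neither was called (adjusted p = 0.106 for Gclm and 0.243 for Gclc).
The changes of the stages share the HE1 libraries with the contrast that chose the group. Whether the stage change of a member differs between the genotypes was not tested for this reason.

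Fold changes across the stages moved with transcript length over all genes. The median log2 fold change of the tested genes was 0.11 between the WT stages, 0.30 between the Lmo2-/- stages and 0.15 from WT to Lmo2-/- HE1. For transcripts of at most 1000 nt these medians were -0.28, -0.68 and -0.07, for 1001 to 1500 nt -0.30, -0.52 and -0.14, for 3001 to 5000 nt 0.21, 0.58 and 0.30, and for longer ones 0.53, 1.20 and 0.57. Gstp1 and Gsta4 belong to the first class and the other transferases to the second, Gclc and Gss to the 3001 to 5000 nt class and Gclm to the longest. In the Flk-1+ comparisons the medians of all classes lay between -0.13 and 0.06.

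**Figure D3:**
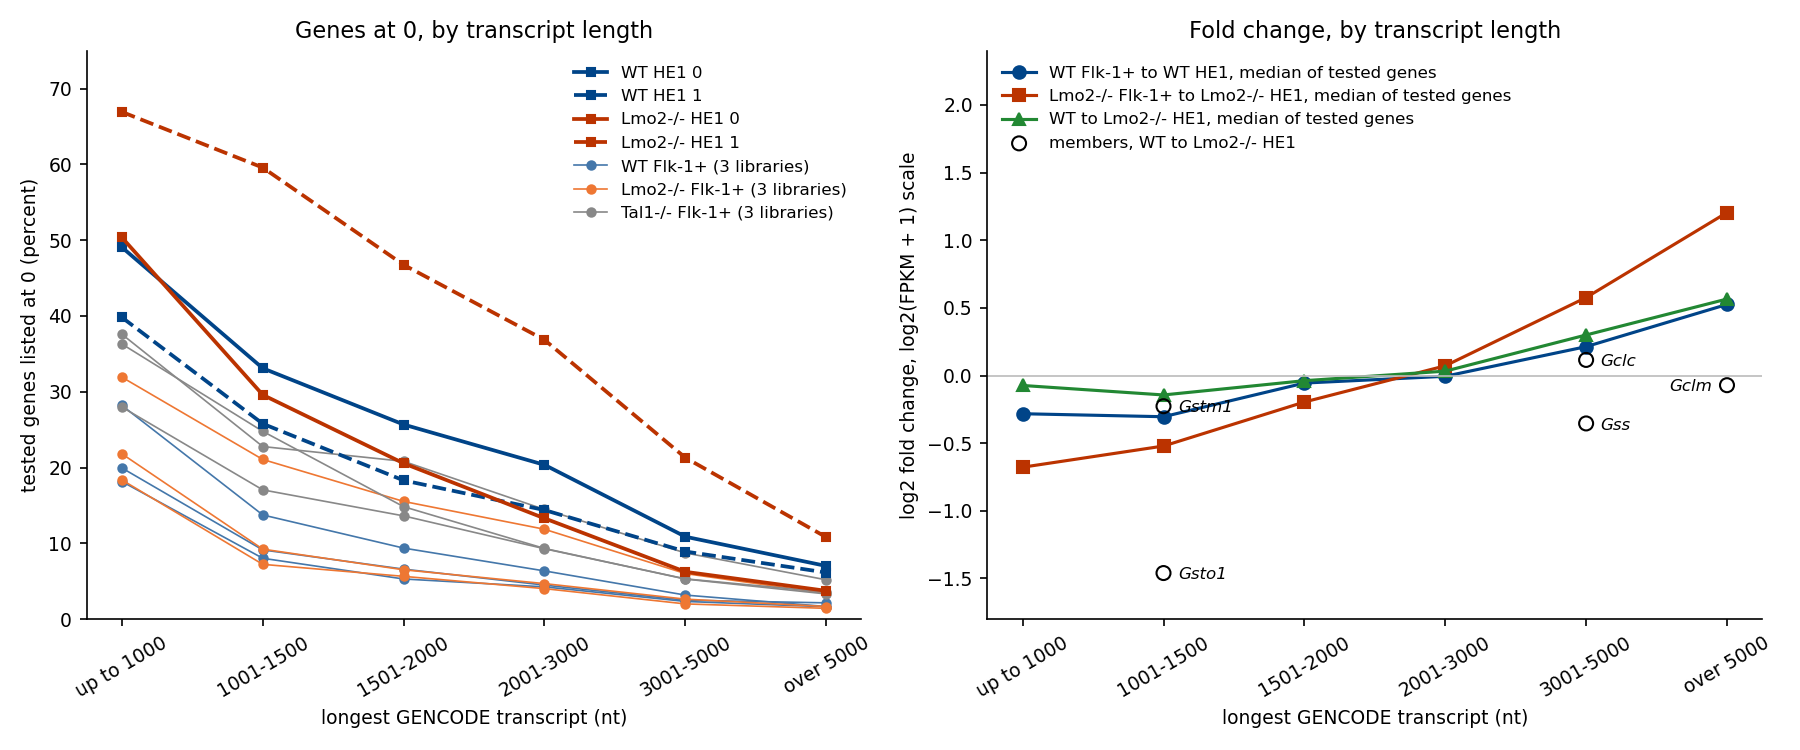
Left, percent of tested genes listed at 0 in each library (vertical axis) by length of the longest GENCODE transcript (6 classes), with HE1 libraries as squares and Flk-1+ libraries as circles; Lmo2-/- HE1 replicate 1 is highest in every class, from 66.9 percent for the shortest to 10.8 percent for the longest. Right, median log2 fold change of tested genes in 3 comparisons by the same classes, with open circles for the 5 members that have a fold change from WT to Lmo2-/- HE1; the medians are higher for transcripts above 3000 nt than for those up to 1500 nt, and Gsto1 lies lowest at -1.46.

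Genes of the wider pathway were followed in 5 lists of 84 genes, of which 70 were tested. Of the other 19 transferases 9 were tested, and none was called in any comparison. Gstm4, Gstcd and the Gstt3 row, which also holds Ddt, reached 23.6, 32.6 and 18.8 FPKM in their highest library, and the other transferases stayed below 7 FPKM (these were named after their values were seen). Between the Lmo2-/- stages the Gstt3 row went from 4.72, 15.4 and 8.44 FPKM to 0 in both HE1 libraries (limma adjusted p = 0.00349). Its mean of 9.52 FPKM in Lmo2-/- Flk-1+ cells was too low for a call. Between the Flk-1+ genotypes none of the 70 was called (limma adjusted p below 0.05). In the order WT against Lmo2-/-, WT against Tal1-/- and Lmo2-/- against Tal1-/-, 4, 7 and 8 of the 70 were under 0.05 unadjusted. Of all 13802 tested genes 307, 843 and 822 were. None of the 9 genes of cystine and glutamine supply and glutathione export was called in any comparison. Of the 70, 4 were called higher and 1 lower between the WT stages, where 6.04 and 0.942 percent of all tested genes were. Between the Lmo2-/- stages 6 were called higher and 2 lower, where the shares of all tested genes were 17.2 and 2.38 percent.

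Of NRF2 and its regulators, Bach1 was called between the stages in both genotypes, Nfe2l2 in Lmo2-/- and Keap1 in neither. Nfe2l2 was at 11.5 to 19.9 FPKM in WT and 12.7 to 21 in Lmo2-/- Flk-1+ cells, at 30.3 and 35.8 in WT HE1 and at 36.4 and 56.7 in Lmo2-/- HE1. Its limma log2 fold change was 1.45 (SE 0.38, adjusted p = 0.0149) between the Lmo2-/- stages, a call, and 1.13 (SE 0.38, adjusted p = 0.0856) between the WT stages. The first was lost without Lmo2-/- HE1 replicate 1 (log2 fold change 1.14) or Lmo2-/- Flk-1+ replicate 2 (limma adjusted p = 0.0566). It was also lost with quantile normalization, a common median, only the groups compared and array weights.
Bach1, a repressor at the same elements, rose in both, by 1.38 (adjusted p = 0.049) in WT and 2.29 (adjusted p = 0.00179) in Lmo2-/-. With the trend on length removed the values were 0.90 and 1.27 with no call, and the WT call was lost in 10 of 13 fits with 1 library left out (adjusted p 0.0544 to 0.261), being kept without Tal1-/- Flk-1+ replicate 1 or either Lmo2-/- HE1 library. Keap1 was at 2.48 to 4.67 FPKM in WT Flk-1+ cells, 7.56 and 9.95 in WT HE1 and 5.18 and 6.73 in Lmo2-/- HE1, with adjusted p of 0.12 and 0.395 between the stages.
Among NRF2 targets, Txnrd1 (thioredoxin reductase) rose in both genotypes, from 18.2 to 38.8 FPKM in WT Flk-1+ cells to 81.5 and 75 in HE1 (log2 fold change 1.59, adjusted p = 0.0121, and 0.123 or 0.0785 without WT HE1 replicate 0 or 1) and from 14.3 to 18.3 to 55.1 and 81.8 in Lmo2-/- (1.95, adjusted p = 0.00188). Srxn1 (sulfiredoxin, which repairs oxidised peroxiredoxins) rose from 2.18 to 2.65 FPKM to 21 and 20.1 in WT (2.68, adjusted p = 0.00325). In Lmo2-/- it went from 0.351 to 0.942 to 9.49 and 4.85, under 10 FPKM.
Between the Lmo2-/- stages Sqstm1, an adaptor of autophagy, was called higher by 2.50, Me1 (malic enzyme, a source of NADPH) by 2.51 and Hmox1 (haem oxygenase) lower by a log2 fold change of -2.32. The Sqstm1 libraries went from 18.1 to 24.7 FPKM to 83.5 and 172. The Hmox1 call was lost without Lmo2-/- HE1 replicate 1 (adjusted p = 0.336) or Lmo2-/- Flk-1+ replicate 1 (0.0995), and also with the trend on length removed (0.0691), with no filter, with only the groups compared and with array weights. Without Lmo2-/- HE1 replicate 0 Me1 was under 10 FPKM (adjusted p = 0.0232). Of the 18 tested genes of this list 3 were called higher and none lower in WT HE1 (median log2 fold change 0.75, against 0.11 for all tested genes), where 6.04 percent of all tested genes were called higher and 0.942 percent lower. In Lmo2-/- HE1 5 were called higher and 1 lower (median 0.73, against 0.30), where the shares of all tested genes were 17.2 and 2.38 percent. Slc7a11, the cystine carrier, and Nqo1, both NRF2 targets, were named after their values were seen, since their adjusted p was below 0.05 between the WT stages: they reached 3.28 and 1.36 FPKM and 5.27 and 2.18 FPKM in WT HE1, too low for a call.

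Of the 20 tested genes of glutathione use and turnover, 1 was called higher and 1 lower from WT to Lmo2-/- HE1, and of the 14 of the thioredoxin, peroxiredoxin and superoxide list 1 was called lower. Gsr, glutathione reductase, was at 7.02 to 21.9 FPKM in WT Flk-1+ cells, 74.1 and 31.6 in WT HE1 and 9.40 and 11.8 in Lmo2-/- HE1. Its limma log2 fold change was 1.84 (SE 0.55, adjusted p = 0.0527) between the WT stages and -2.10 (SE 0.61, adjusted p = 0.0683) from WT to Lmo2-/- HE1, with no overlap but without a call.
From WT to Lmo2-/- HE1, 4 genes of the lists were called: Gpx1, Taldo1 and Prdx3 lower and Anpep higher. That is 1 higher and 3 lower of 70, where 2.15 percent of all tested genes were called higher and 0.855 percent lower. Prdx3, the mitochondrial peroxiredoxin, was at 65.9 and 36.9 FPKM in WT and 16.3 and 2.54 in Lmo2-/- (-2.68, SE 0.63, adjusted p = 0.0317), Taldo1 of the pentose phosphate route at 21.1 and 9.06 against 2.76 and 0 (-2.94, SE 0.65, adjusted p = 0.0229), and Gpx1, glutathione peroxidase, at 34.4 and 49.9 against 13.1 and 1.61 (-2.81, SE 0.74, adjusted p = 0.0478). Anpep, an ectopeptidase that acts on the products of glutathione breakdown, was at 0.109 and 7.48 FPKM in WT and 17.2 and 37.0 in Lmo2-/- HE1 (3.1, SE 0.73, adjusted p = 0.0308). The 70 genes had a median of -0.24, against 0.15 for all tested genes.
None of these 4 calls was kept without Lmo2-/- HE1 replicate 1. The log2 fold changes were then -1.54 for Prdx3, -1.98 for Taldo1, -1.59 for Gpx1 and 2.57 for Anpep. Without that replicate 1, limma gave an adjusted p of 0.202 for Prdx3, 0.153 for Taldo1 and 0.198 for Anpep. Without WT HE1 replicate 0 Prdx3 (0.214), Taldo1 (0.19) and Anpep (0.221) were not called, without WT HE1 replicate 1 Prdx3 (0.0793) and Taldo1 (0.0523) were not, and without WT Flk-1+ replicate 2 Prdx3 (0.0514) was not. The Gpx1 call was kept only without Lmo2-/- Flk-1+ replicate 1 or Lmo2-/- HE1 replicate 0 (adjusted p 0.0517 to 0.334 in the other 11 fits). With the trend on length removed, Taldo1 (limma adjusted p = 0.0418) and Anpep (0.0495) were called and Prdx3 (0.0539) and Gpx1 (0.0853) were not. None of the 4 was called with array weights or with only the groups compared, where none of 11014 genes was. Anpep, Prdx3 and Gpx1 were also lost with no filter, and Anpep and Gpx1 with a pseudocount of 0.1 and with quantile normalization. Anpep was further lost with a common median, and Gpx1 with no trend and with the replicate block.
Between the WT stages Prdx3 was called higher in HE1 (2.48, adjusted p = 0.016) and Anpep lower (-3.23, adjusted p = 0.00802). The first was lost without WT Flk-1+ replicate 1 (0.068) or WT HE1 replicate 0 (0.186) or 1 (0.0527), and the second without WT HE1 replicate 0 (-1.76, adjusted p = 0.121). Between the Lmo2-/- stages Cat, catalase, rose from 10.8 to 14.7 FPKM to 36.3 and 94.5 (2.16, adjusted p = 0.0027) and Gpx1 fell (-2.16, adjusted p = 0.0316). The Gpx1 call was lost without Lmo2-/- Flk-1+ replicate 1 (0.103) or 2 (0.0619) and without Lmo2-/- HE1 replicate 1 (-0.95, adjusted p = 0.36), and with the trend on length removed (0.117). By the interaction term of the same fit, 0 of the 70 genes had a WT to Lmo2-/- difference that changed between the stages at an adjusted p below 0.05 (smallest limma adjusted p = 0.172). Of the 70, 11 were under 0.05 unadjusted, a count that cannot be read alone because the share over all tested genes is not given here.

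**Figure D4:**
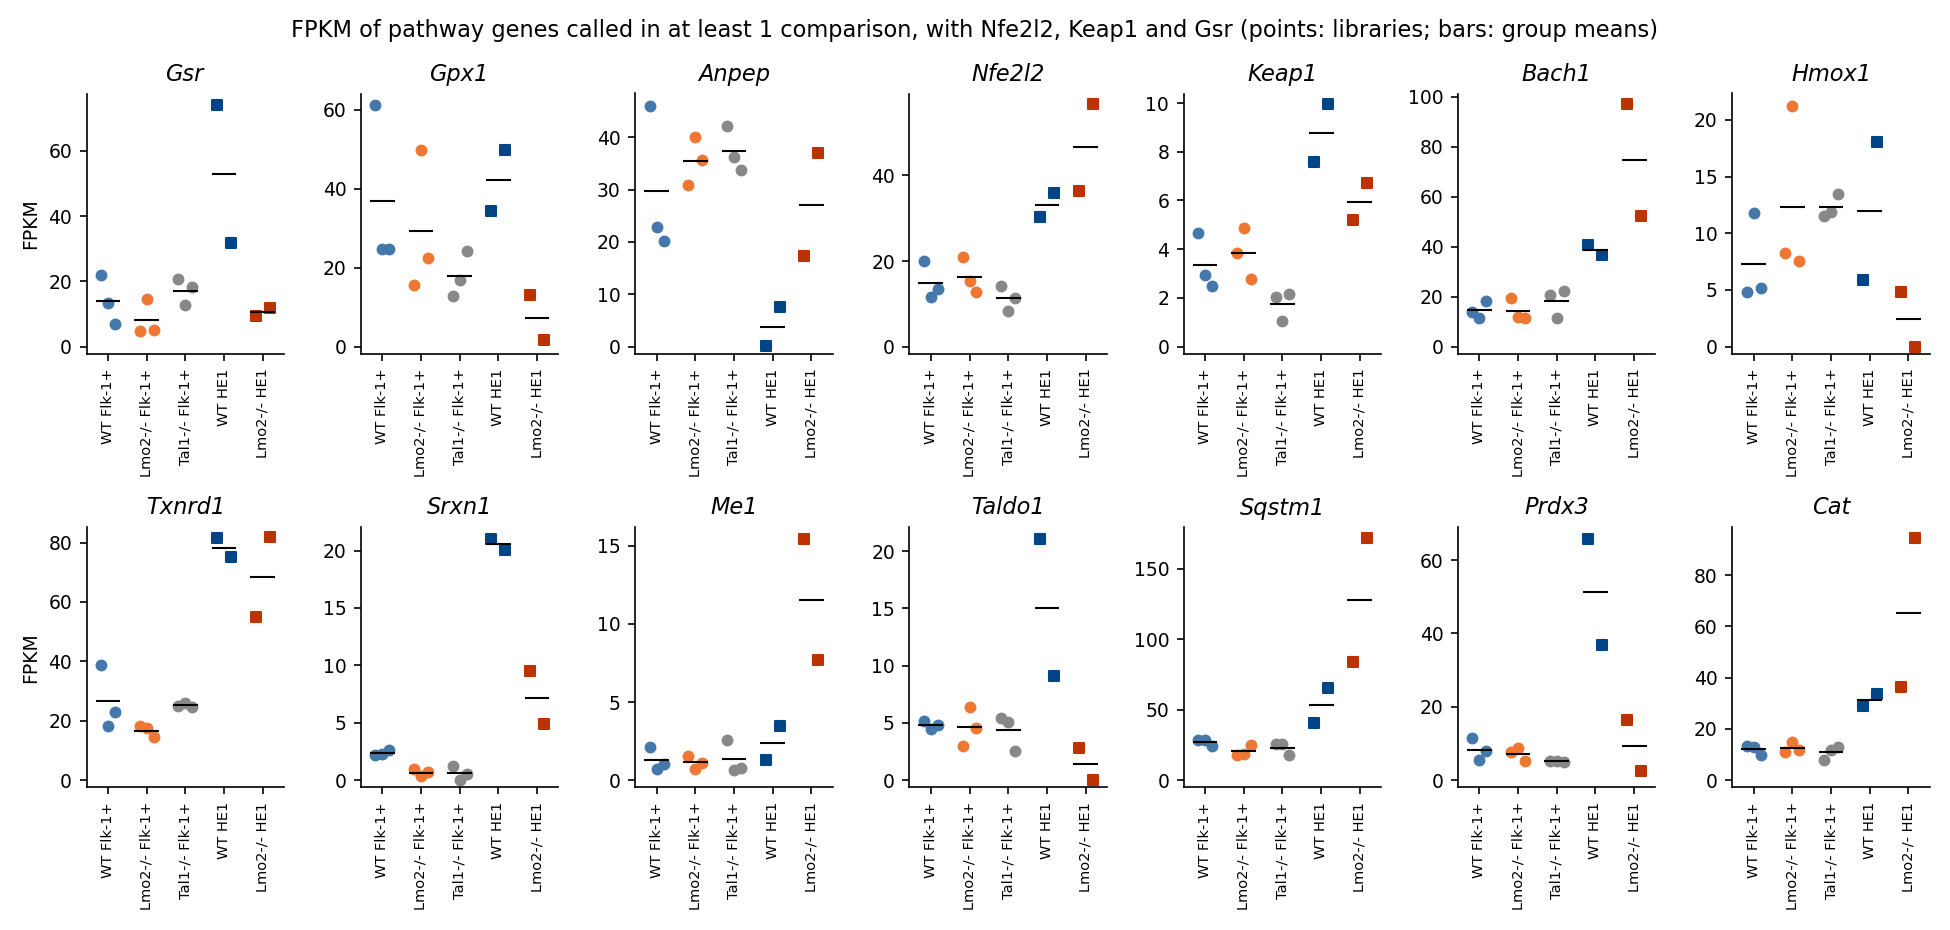
FPKM (vertical axes, linear, scaled to each gene) of the 11 pathway genes called in at least 1 comparison besides Nfe2l2, and of Nfe2l2, Keap1 and Gsr, in the 13 libraries by group. Points are libraries and bars are group means; Gsr, Taldo1 and Prdx3 are highest in WT HE1, and Sqstm1 and Cat highest in Lmo2-/- HE1.

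The genes whose levels were most like those of Gsta4 were sought among 7281 others with a mean above 10 FPKM in at least 1 group. By Pearson's correlation of log2(FPKM + 1) over the 13 libraries these were Rnaseh2c (0.865), Gm15429 (0.848), Ndufb11 (0.835), Imp4 (0.833) and Nme6 (0.832). All 5 were highest on average in WT HE1, and 4 of them were at or below 1.68 FPKM in both Lmo2-/- HE1 libraries, the exception being Imp4. This pattern follows from the choice of genes by their likeness to Gsta4 and is no separate result. The longest transcript is 798 to 1126 nt for these 4 and 5836 nt for Imp4. Among the members the value was 0.635 for Gsto1, 0.0736 for Gclm and 0.0445 for Gclc, the others being under 10 FPKM. The libraries of a group share genotype and stage, so these values describe the pattern over 5 groups.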

How the data were processed

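The paired-end RNAseq reads were aligned by the authors with TopHat 2.0.9 to GRCm38. Transcripts were assembled with Cufflinks 2.0.0, for which the paper names quartile normalisation and effective length correction, and merged. The authors deposited FPKM for each library (Cuffnorm) and FPKM of each condition with the replicates pooled (Cuffdiff 2.0.1). Whether counting used strand is not given in the sources used here. Their table of comparisons, with fold changes and p-values, was not used. The replicates are independent libraries, and p-values measure the spread between them.

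Genes with a locus over 200 bp (42236 of 45250) and at least 1 FPKM in at least 2 libraries were tested. limma 3.58.1 in R 4.3.3, with a mean-variance trend, was fitted to all 13 libraries on the log2(FPKM + 1) scale, 1 coefficient per group (two-sided), and was tested on simulated data. Fold changes on this scale understate the change of low genes. Python 3.11.15, numpy 2.4.6, pandas 2.3.3 and scipy 1.17.1 did the rest. Members, lists and tests were chosen with earlier results of these data known. Named were all members, Nfe2l2, Keap1 and Gsr, called genes of the lists (at most 6 per comparison, by fold change), the 5 genes most like Gsta4, and Lmo2 and Tal1. Alternatives were a pseudocount of 0.1, other filters, no FPKM criterion, other scalings, separate fits, no trend, array weights, the replicate block and leaving out each library. The transcript length correction was chosen after seeing the data: the lowess trend of each library's deviation from the gene mean on transcript length was subtracted, for the 96.4 percent of tested genes with a GENCODE length. ChIP and DNase samples were not analysed here.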

Additional observations from a re-analysis of the deposited data

Results flagged for a closer look

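The direction of the difference turned between genotypes or stages for Gsta4 and Gstp1. From Flk-1+ cells to HE1 the mean FPKM of Gsta4 differed by 34.7 in WT and by -2.30 in Lmo2-/-, and that of Gstp1 by 4.82 in WT and by -2.05 in Lmo2-/-. From WT to Lmo2-/- the mean FPKM of Gstp1 differed by 1.74 in Flk-1+ cells and by -5.13 in HE1. In each of these the libraries of the groups compared did not overlap. Of all tested genes, 39.7 percent did not overlap from WT to Lmo2-/- HE1 and 8.21 percent from WT to Lmo2-/- Flk-1+ cells. The shares of all tested genes that do not overlap between the stages, or that turn in this way, are not given here. The number of members that turn therefore cannot be read alone. Whether the effects differ from each other was not tested, because each pair includes HE1 libraries of the contrast that chose the group, and both genes are listed at 0 in the Lmo2-/- HE1 libraries.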

How the results depend on the processing

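Depth is not known beyond the minimum that the paper states, HE1 has pairs of libraries, and Lmo2-/- HE1 replicate 1 had the fewest genes above 0 (9694). Between the WT stages the count of members called, 1, became 0 with a pseudocount of 0.1, quantile normalization, a common median or the replicate block, and 2 with a filter of 10 FPKM in at least 1 library, no FPKM criterion, a fit of only the groups compared or array weights (0 to 2 with a library left out). Between the Lmo2-/- stages the count, 2, became 0 with quantile normalization, a common median, array weights or the transcript length correction, and 1 with only the groups compared or the replicate block (0 to 2 with a library left out). Of the pathway genes, the 5 called between the WT stages became 13 with array weights (1 to 8 with a library left out). The 8 called between the Lmo2-/- stages became 13 with no FPKM criterion, 5 with only the groups compared and 4 with array weights (5 to 15). The 4 called from WT to Lmo2-/- HE1 became 2 with a pseudocount of 0.1, quantile normalization or the length correction, 1 with no filter, and 0 with only the groups compared or array weights (0 to 16). Between the Flk-1+ genotypes these counts were 0 in all the fits run, which for members the 10 FPKM criterion fixes in part. The 4 member comparisons at the smallest permutation p became 2 with the filter of 10 FPKM, which tests fewer members (0 to 6 with a library left out). Counts over all tested genes moved too. Between the WT stages array weights called 1421 of 13802 higher and 261 lower, against 834 and 130 in the main fit. Between the Lmo2-/- stages the main fit called 2379 and 328. With no FPKM criterion these were 2736 and 788, with only the groups compared 1314 and 151 and with array weights 886 and 90. From WT to Lmo2-/- HE1 the main fit called 297 and 118. These became 243 and 72 with a pseudocount of 0.1, 228 and 72 with no filter and 123 and 89 with quantile normalization. They became 180 and 112 with the length correction, 40 and 11 with array weights and 0 and 0 with only the groups compared. The ranges with a library left out have no such counts over all tested genes beside them and cannot be read alone. Other than where fewer samples or genes were tested, the cause of a changed count was not tested. No value reversed among called ones. Of 23 same-numbered pairs of libraries, 3 had a correlation of deviations above 0.1 (range -0.18 to 0.17). Pairs with different numbers were not compared, so whether the replicate numbers pair the libraries is not settled by this. With the replicate block the Gsto1 adjusted p (limma, WT stages) was 0.0591, that of Gclc between the Lmo2-/- stages 0.103 and that of Gclm 0.0379.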
